A study of Homo sapiens with 4 samples.

Results

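The DNAJ genes encode the J proteins, also called HSP40s, the co-chaperones of the HSP70 family. Of the 44 table rows whose current symbol is DNAJA, DNAJB or DNAJC with a number, 43 were protein coding. Described here are the 36 that reached 1 TPM in 2 or more of the 4 libraries, a minimum met by 12947 genes in all. TPM is a transcript level per unit of transcript length, expressed relative to the total of its library. The 36 comprised 3 genes of class A, 9 of class B and 24 of class C. By background knowledge of where the proteins act, 17 were placed in the cytosol or nucleus, 11 in the endoplasmic reticulum (ER), 5 in mitochondria and 2 elsewhere, and DNAJC4 was left unplaced.

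The libraries came from AMO1, an established line from a human plasmacytoma and a common myeloma model, whose genotype is given as wild type. The control group, 2 libraries, received the vehicle DMSO at 0.1% for 6 h. The treated group, also 2 libraries, received periplocin for 6 h, at a concentration that the labels give as 0.2 mM. Cardiac glycosides are usually given to cells at far lower concentrations, and nothing in the files shows whether the labelled unit is right. Periplocin is a cardiac glycoside, one of the plant steroids that inhibit the Na/K-ATPase. A single line and 1 time point were sampled. The labels do not say whether replicate libraries were grown as separate cultures, so each p-value reflects the spread among these 4 libraries, part or all of which may be technical.

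Every J protein carries a J domain, which docks on an HSP70 and stimulates its ATPase, so that the HSP70 closes on a client protein. Class A proteins resemble bacterial DnaJ in their whole layout, class B proteins share its J domain and the glycine-rich stretch beside it, and class C proteins share the J domain alone and mostly serve 1 specialised task. HSPA8 is the constitutive HSP70 of the cytosol, HSPA5 (BiP) that of the ER lumen and HSPA9 (mortalin) that of the mitochondrial matrix. Plasma cells secrete large amounts of antibody and are known for a well-developed ER folding machinery.

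The 9 plasma cell markers were all above the minimum, with summed levels of 9863 to 10561 TPM per library. With periplocin PRDM1 (-0.98), IRF4 (-0.60), XBP1 (-0.40) and MZB1 (-0.31) were lower and SLAMF7 (1.59) was higher (log2 fold changes); with size factors 2 of the 9 were lower and 1 higher. None of the 4 B cell markers reached it (summed level 0.279 to 1.28 TPM). The T and NK cell markers summed to 3.26 to 6.88 TPM, with CD3D at 0 and CD3E at 2.09 to 3.49 TPM. NKG7 read 4.20 and 2.21 TPM in DMSO and 0.964 and 0 TPM with periplocin. It was lower (-1.54, limma adjusted p = 0.0465), a call lost with size factors. The myeloid markers, of which CSF1R met the minimum, summed to 0.666 to 1.74 TPM. The epithelial and stromal markers summed to 18.0 to 21.0 TPM, most of it KRT8 at 16.8 to 19.1 TPM. The part of all these markers in any result was not tested. Each library had between 12357 and 12915 genes at 1 TPM or more. TPM keeps no record of sequencing depth, so depth is unknown and no counting interval is given.

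Stretches of 4 promoters are printed because heat shock and CCAAT elements are the textbook control elements of chaperone genes. The sequences are RefSeq's (GRCh38.p14), 5′ to 3′ on the strand of the gene, and the capitals mark the motif. Each runs from 150 bases before to 20 bases after an annotated start. DNAJA1 (chr9:33025123-33025292, plus strand) holds a heat shock element of 3 units at positions 4 to 16 after the start. DNAJB6 (chr7:157336854-157337023, plus strand) holds one at -131 to -119. DNAJB1 (chr19:14518378-14518547, minus strand) holds a pair of 2-unit elements, at -77 to -70 and at -47 to -40. DNAJB1 has several annotated starts, and the one with the most matches to this motif is shown. DNAJC30 (chr7:73683434-73683603, minus strand) holds a CCAAT box on the opposite strand, read here as ATTGG, at -12 to -8.
DNAJA1: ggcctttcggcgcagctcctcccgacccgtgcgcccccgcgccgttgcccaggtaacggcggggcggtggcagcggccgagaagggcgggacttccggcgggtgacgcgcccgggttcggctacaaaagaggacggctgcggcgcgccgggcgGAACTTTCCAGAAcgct
DNAJB6: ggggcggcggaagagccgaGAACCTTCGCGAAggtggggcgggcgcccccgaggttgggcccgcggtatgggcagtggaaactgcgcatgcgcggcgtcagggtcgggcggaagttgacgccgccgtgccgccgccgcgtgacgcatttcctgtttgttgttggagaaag
DNAJB1: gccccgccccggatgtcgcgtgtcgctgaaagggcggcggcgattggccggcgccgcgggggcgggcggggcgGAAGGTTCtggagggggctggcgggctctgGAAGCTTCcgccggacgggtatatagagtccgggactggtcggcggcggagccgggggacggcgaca
DNAJC30: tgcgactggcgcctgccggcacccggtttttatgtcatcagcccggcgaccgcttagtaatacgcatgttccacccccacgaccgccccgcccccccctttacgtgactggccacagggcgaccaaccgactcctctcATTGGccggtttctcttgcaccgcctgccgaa

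Of the 36 genes, 34 had a RefSeq promoter window, which runs from 250 bases before to 50 bases after the start. The 3-unit heat shock element, GAANNTTCNNGAA or TTCNNGAANNTTC on either strand, was in 2 of the 34 (5.88%), against 0.5% of the windows of 9288 tested genes and 0.61% of 27305 genes in all. The 2-unit form, GAANNTTC or TTCNNGAA, which lies within the 3-unit form, was in 6 (17.65%), against 13.82% of tested genes and 16.18% of all. Those 6 were DNAJA1, DNAJB1, DNAJB4, DNAJB6, DNAJC6 and DNAJC15. CCAAT was in 13 (38.24%), against 43.76% and 39.72%, and the E-box CACGTG in 4 (11.76%), against 13.08% and 8.77%. The ER stress element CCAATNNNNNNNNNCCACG was in none of the 34, against 0.17% of tested genes and 0.09% of all. A match describes the letters in the window and does not show binding, and the windows' shares were not tested against each other.

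Mean levels in DMSO, per transcript length, ranged from 1.54 to 168 TPM. In DMSO the most abundant was DNAJB11 (ERdj3, which binds unfolded clients of BiP in the ER lumen). It stood at 171 and 164 TPM in the libraries of DMSO and 144 and 142 TPM in those of periplocin. Of the words of 31 bases in its transcripts, 32.7% also occur in other rows on either strand, so that level is uncertain. DNAJA1 (a general partner of cytosolic HSP70) came next in DMSO, at 127.7 and 140.4 TPM, followed by DNAJC8 (a nuclear protein associated with splicing), at 86.0 and 99.4 TPM. The order of DNAJA1 and DNAJC8 differed with periplocin, where DNAJC8 stood at 117 and 118 TPM and DNAJA1 at 83.3 and 99.1 TPM. DNAJA3 had rank 6 in DMSO and rank 17 with periplocin. The least abundant was DNAJB5, at 1.27 and 1.81 TPM in DMSO and 0.321 and 0.274 TPM with periplocin, and it met the minimum through the DMSO libraries alone. The 7 protein-coding genes under the minimum were DNAJB13, with a highest level of 1.37 TPM, DNAJC22 (0.770 TPM), DNAJA4 (0.409 TPM), DNAJC5B (0.326 TPM), DNAJC28 (0.325 TPM), DNAJB7 (0.256 TPM) and DNAJB8, listed at 0. DNAJB3, the row that was not protein coding, was also listed at 0.

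**Figure D1:**
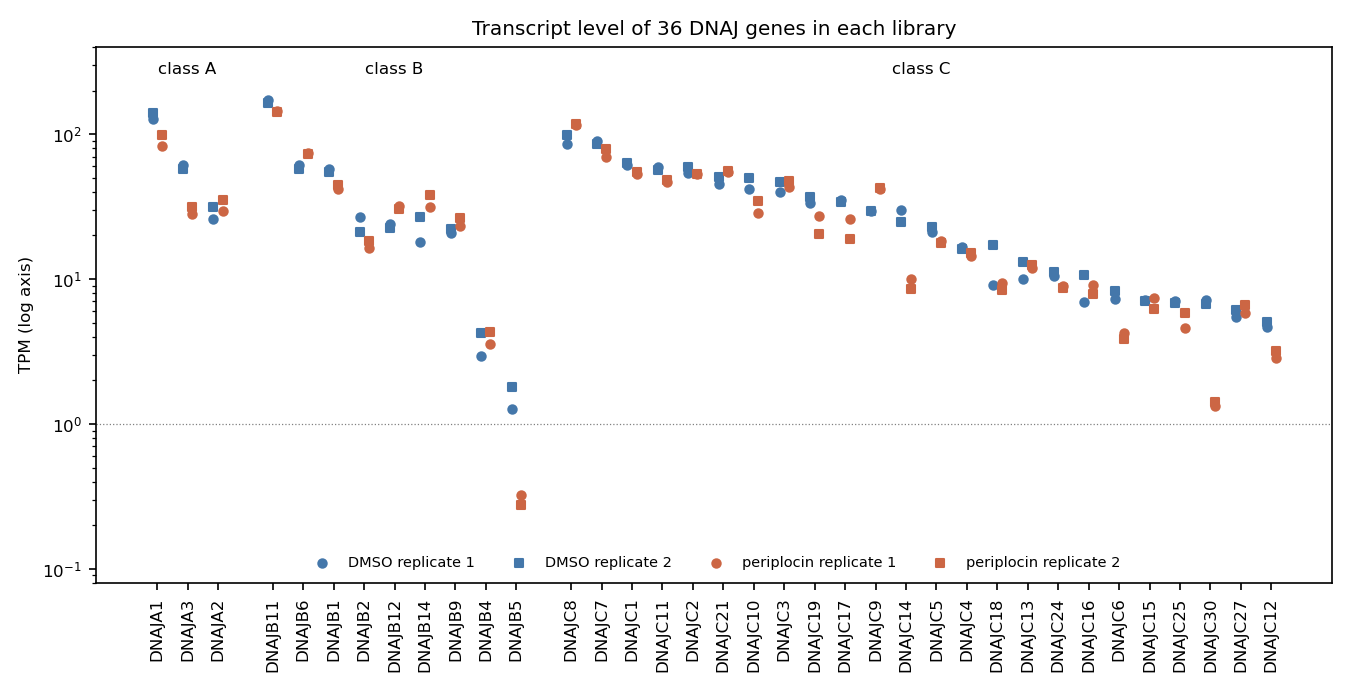
Level of the 36 DNAJ genes in each of the 4 libraries, in TPM on a log axis, ordered within each class by the DMSO mean; the dotted line marks 1 TPM. DNAJB11 tops class B at 142 to 171 TPM. DNAJC30, DNAJC14, DNAJA3 and DNAJB5 are among several genes whose periplocin points both lie under both DMSO points.

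With periplocin 9 of the 36 genes were lower and 2 were higher (limma, adjusted p under 0.05 over all tested genes). The higher ones are 5.56% of the 36 and the lower ones 25%, and among all tested genes 18.9% were lower and 10.4% were higher. The difference between these shares was not tested. The median log2 fold change on log2(TPM + 1) was -0.23 for the 36 and -0.14 for all tested genes. The balance depended on how libraries were scaled. Dividing by size factors (medians of gene-wise ratios), under which the median of all tested genes was -0.01, left 5 of the 36 higher and 4 lower, against 15.5% and 13.5% of all tested genes. Without DMSO replicate 1 or without DMSO replicate 2 no gene in the table passed the threshold. The smallest adjusted p among the 36 was then 0.0981 or 0.0839 in limma, while 11 or 9 of them had an unadjusted p under 0.05. DNAJA3, DNAJC14 and DNAJC30 were called lower under every other alternative tried. Without periplocin replicate 1, 5 lower calls and no higher call remained, and without periplocin replicate 2, 4 and none. Among all tested genes 8.82% were then lower and 4.03% higher, or 8.32% and 3.69%.

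By class, the 3 class A genes had 2 lower and none higher, with a median log2 fold change of -0.55. The 24 class C genes had 6 lower and 2 higher, with a median of -0.25, and with size factors 2 lower and 2 higher, with a median of -0.11. The 9 class B genes had 1 lower and none higher, with a median of 0.12, the only positive class median. That sign was not stable: it was 0.23 with size factors, where 3 class B genes were higher and none lower, and -0.08 without DMSO replicate 1. By compartment, the 17 cytosolic and nuclear genes had 4 lower and 2 higher (median -0.27), and the 11 ER genes had 2 lower and none higher (median -0.20). With size factors the cytosolic and nuclear genes had 1 lower and 3 higher (median -0.13) and the ER genes 1 lower and 2 higher (median -0.055). Without DMSO replicate 2 the ER median was -0.038. The 5 mitochondrial genes had 3 lower and none higher (median -0.56), and all 5 had a fold change below 0, except that DNAJC15 stood at 0.074 with size factors, 0.23 with quantile normalization and 0.054 without periplocin replicate 2, and DNAJC19 at 0.38 with pseudogene TPM added. With size factors 2 of the 5 were lower and none higher. No class or compartment was tested against another.

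**Figure D2:**
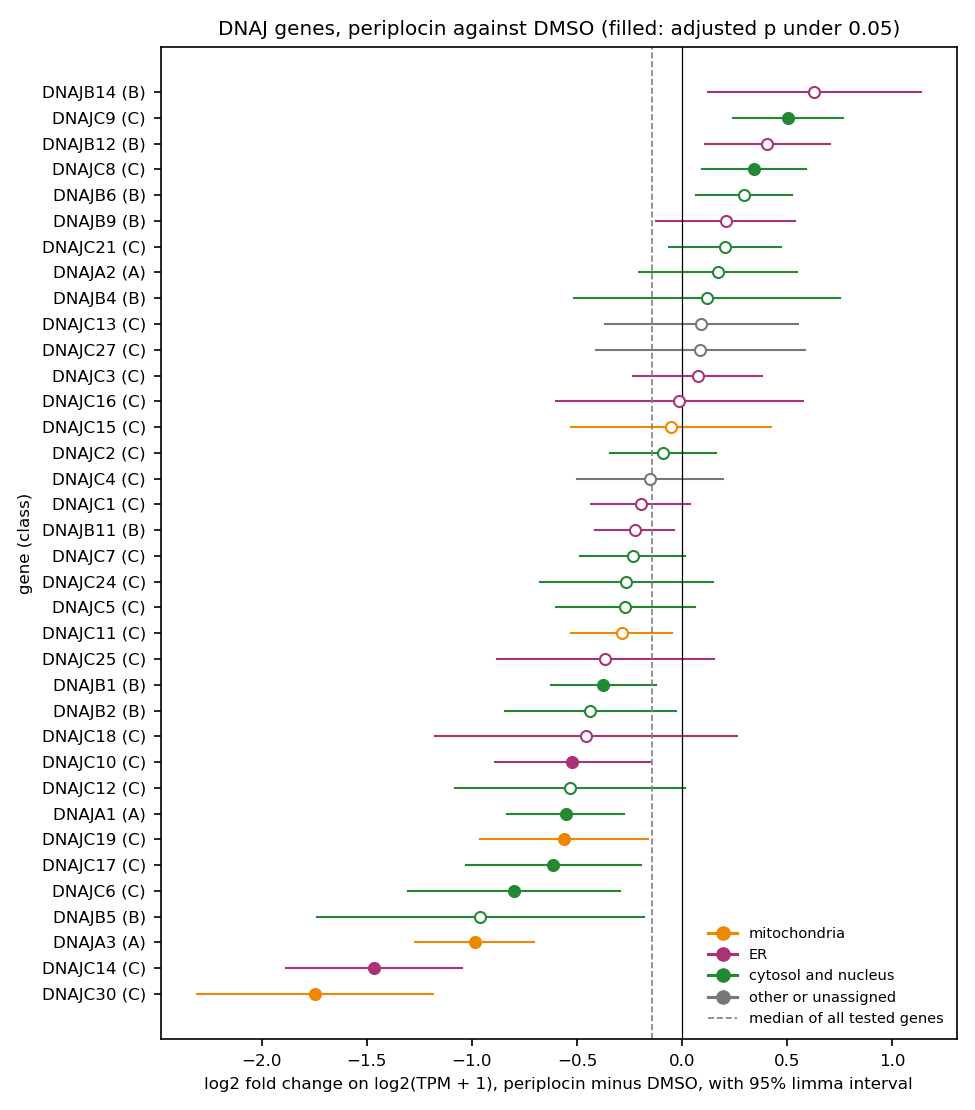
Log2 fold change of each of the 36 DNAJ genes, periplocin minus DMSO on log2(TPM + 1), with its 95% limma interval, coloured by compartment; filled points passed an adjusted p of 0.05 and the dashed line is the median of all tested genes, -0.14. The 3 lowest filled points are DNAJC30 (-1.75), DNAJC14 (-1.47) and DNAJA3 (-0.99), and the filled points above 0 are DNAJC9 and DNAJC8.

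Among the general partners of HSP70 in the cytosol, DNAJA1 stood at 127.7 and 140.4 TPM in DMSO and at 83.3 and 99.1 TPM with periplocin. Its groups did not overlap, and it fell by 0.55 on the log2 scale (SE 0.11, limma adjusted p = 0.0184; 0.0387 with size factors). The DNAJA1 call was lost with no filter on low values (limma adjusted p = 0.0689), without the trend (limma adjusted p = 0.0664) and without periplocin replicate 1 (limma adjusted p = 0.0748). DNAJB1, the classical stress-inducible HSP40, stood at 57.3 and 54.9 TPM in DMSO and at 41.8 and 44.3 TPM with periplocin, a log2 fold change of -0.37 (SE 0.10, limma adjusted p = 0.0394). The DNAJB1 call was lost with size factors, where the fold change was -0.23 (limma adjusted p = 0.135). DNAJB6, which suppresses the aggregation of polyglutamine proteins, stood higher in both periplocin libraries: 61.5 and 57.8 TPM against 73.8 and 72.9 TPM. Its log2 fold change of 0.29 (SE 0.09, limma adjusted p = 0.0616) missed the threshold in the main fit and passed it with size factors (0.44, limma adjusted p = 0.0214). The 2 genes with a 3-unit heat shock element had fold changes of opposite sign. DNAJB5, a close relative of DNAJB1, had a log2 fold change of -0.96 (SE 0.32) that did not pass (limma adjusted p = 0.0678), though it did without the trend (limma adjusted p = 0.0287). DNAJA2, which works with HSP70 in folding and disaggregation, had 0.17 (limma adjusted p = 0.433), and DNAJC7, which binds both HSP70 and HSP90, had -0.23 (limma adjusted p = 0.135). Of the 7 class A and class B genes of the cytosol, 2 were lower and none higher.

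In the ER, DNAJC14, a membrane protein, showed the largest change. Its row read 30.2 and 24.7 TPM in DMSO and 9.98 and 8.54 TPM with periplocin, a log2 fold change of -1.47 (SE 0.17, limma adjusted p = 0.00473). With either strand counted, 58.2% of the 31-base words of its transcripts also occur in other rows. Its exons overlap AC023055.1 on the same strand (0.47, limma adjusted p = 0.213) and, on the opposite strand, ORMDL2 (-0.38, limma adjusted p = 0.102) and TMEM198B (-1.06, limma adjusted p = 0.00627). The sources used here do not state how reads were shared among these rows or whether strand was used, so the DNAJC14 level is uncertain. DNAJC10 (ERdj5), a disulfide reductase that acts with BiP in ER-associated degradation, stood at 41.6 and 49.8 TPM in DMSO and at 28.5 and 34.6 TPM with periplocin. It fell by 0.52 (SE 0.15, limma adjusted p = 0.0472), and with size factors the call was lost (-0.38, limma adjusted p = 0.0992).

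The other 6 genes of the ER lumen group, which was set by hand, did not pass. That group also held DNAJC1, DNAJC16 and DNAJC25. Whether its proteins are free in the lumen or anchored in the membrane was not checked. DNAJB11 had a log2 fold change of -0.23 (limma adjusted p = 0.0726). Its exons overlap AC068631.2 on the same strand (-1.19, limma adjusted p = 0.00926) and TBCCD1 on the opposite strand (-1.19, limma adjusted p = 0.0127). How reads were shared among these rows is not known. DNAJB9 (ERdj4, a repressor of the stress sensor IRE1) had 0.21 (limma adjusted p = 0.285). DNAJC3 (P58IPK, induced by the unfolded protein response) had 0.07 (limma adjusted p = 0.686). DNAJB9 stood at 20.7 and 22.0 TPM in DMSO and at 23.3 and 26.4 TPM with periplocin, and DNAJC3 at 39.7 and 46.7 TPM against 43.2 and 47.6 TPM. The DNAJC3 groups overlapped. DNAJB12 and DNAJB14, ER membrane proteins whose J domain faces the cytosol and which act in ER-associated degradation, stood higher in both periplocin libraries. DNAJB12 read 24.0 and 22.5 TPM in DMSO and 31.9 and 30.3 TPM with periplocin (0.41, SE 0.12, limma adjusted p = 0.0524). DNAJB14 read 18.2 and 26.7 TPM against 31.5 and 38.1 TPM (0.63, SE 0.21, limma adjusted p = 0.0672). Both missed the threshold and both passed it with size factors (0.55 and 0.77, limma adjusted p = 0.0235 and 0.0362). Their relative DNAJC18 had DMSO libraries that lay far apart, at 9.14 and 17.1 TPM, against 9.41 and 8.38 TPM, and its fold change of -0.46 did not pass (limma adjusted p = 0.280).

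Among the mitochondrial genes, DNAJC30, which encodes a protein of the inner membrane, had the lowest fold change of all 36. It read 7.19 and 6.70 TPM in DMSO and 1.32 and 1.41 TPM with periplocin, so it fell by 1.75 on the log2(TPM + 1) scale (SE 0.23, limma adjusted p = 0.00597). This scale understates the change of a gene at such a low level, whose ratio of means was 0.197. DNAJC30 has a single exon, and 17.4% of its words occur in other rows, most of them in BUD23, which it overlaps on the opposite strand. BUD23 was far more abundant, at 220.9 and 214.9 TPM in DMSO and 182 and 216 TPM with periplocin, and did not pass (-0.13, limma adjusted p = 0.350). DNAJA3 (Tid1), the class A partner of HSPA9 in the matrix, stood at 61.7 and 57.9 TPM in DMSO and at 27.9 and 31.5 TPM with periplocin. It fell by 0.99 (SE 0.12, limma adjusted p = 0.00474), and none of its 31-base words occur in another row. DNAJC11, tied to the organisation of the cristae, had -0.29 (limma adjusted p = 0.0739), and DNAJC15, of the inner membrane, had -0.05 (limma adjusted p = 0.855). Of the DNAJC11 words, 39.4% also occur in THAP3 on the opposite strand, which did not pass (0.12, limma adjusted p = 0.677).

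DNAJC19, an inner membrane protein related to the import motor, stood at 33.7 and 36.9 TPM in DMSO and at 27.1 and 20.5 TPM with periplocin (-0.56, SE 0.16, limma adjusted p = 0.0483). Its call was lost with size factors (-0.42, limma adjusted p = 0.104). The table also holds 31 rows of DNAJ pseudogenes, 25 of them at 0 throughout, and only DNAJC19P5 reached 1 TPM. DNAJC19P5 was listed at 0 and 3.24 TPM in DMSO and at 25.1 and 24.2 TPM with periplocin (3.64, SE 0.63, limma adjusted p = 0.0115), the opposite direction to DNAJC19. When the 2 rows were added, DNAJC19 with its pseudogene read 33.7 and 40.2 TPM in DMSO and 52.1 and 44.7 TPM with periplocin. The fold change turned to 0.38, which did not pass. TPM is per transcript length, and DNAJC19P5 has 316 bases against 1454 in the DNAJC19 transcript aligned to it. Equal numbers of reads thus give the shorter row more TPM, and the sum overstates what its reads would add to DNAJC19. Whether the sign would turn with length taken into account was not tested.

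The sequences of DNAJC19 and DNAJC19P5 are printed because that reversal depends on telling the rows apart. DNAJC19P5 (chr2:177229191-177229506, minus strand, GRCh38) aligned to the DNAJC19 transcript over 315 bases with 87.62% identity, and none of its 286 words of 31 bases occur in DNAJC19. Below are coding bases 64 to 153 of DNAJC19 (GENCODE 29) and the aligned bases of DNAJC19P5 (chr2:177229375-177229464, minus strand), 90 bases each, with the 11 that differ in capitals.
DNAJC19: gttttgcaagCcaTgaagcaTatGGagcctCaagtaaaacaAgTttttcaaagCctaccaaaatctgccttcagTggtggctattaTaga
DNAJC19P5: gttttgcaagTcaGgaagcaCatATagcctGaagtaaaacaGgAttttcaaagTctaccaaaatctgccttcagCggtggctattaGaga

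DNAJC19P5 lies within NFE2L2, on the same strand and in an intron: it shares 0 exon bases with it, and the nearest exons are 798 and 1237 bases away. NFE2L2, the transcription factor NRF2 of the oxidative stress response, read 76.1 and 92.9 TPM in DMSO and 102 and 127 TPM with periplocin (0.43, SE 0.15, limma adjusted p = 0.0726). Whether reads of the DNAJC19P5 row came from the NFE2L2 intron was not tested. DNAJC19P9, whose sequence is 98.86% identical to DNAJC19, was listed at 0 in all 4 libraries.

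**Figure D3:**
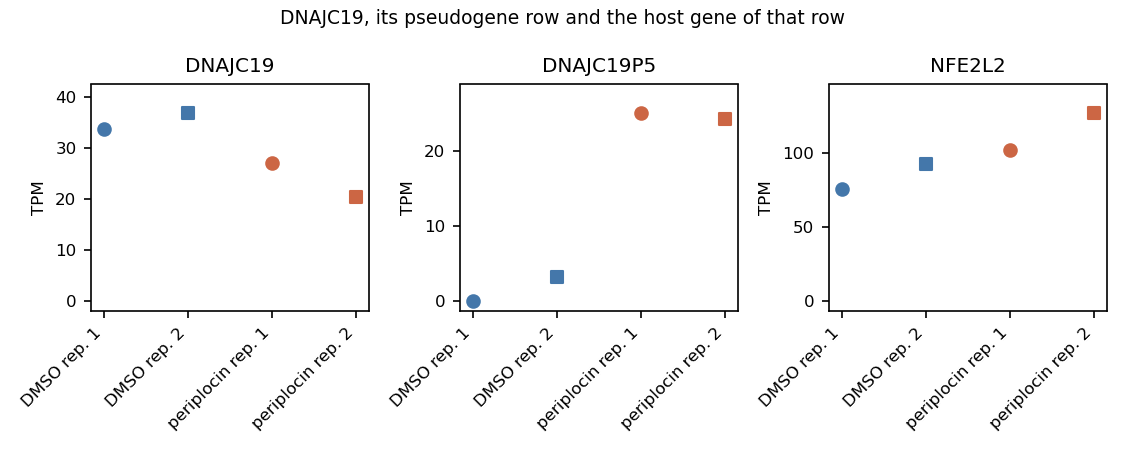
Level in TPM of DNAJC19, of the pseudogene row DNAJC19P5 and of NFE2L2, the gene whose intron holds that pseudogene, in each of the 4 libraries, on separate linear axes. DNAJC19 is lower in both periplocin libraries, while DNAJC19P5 goes from 0 and 3.24 TPM to 25.1 and 24.2 TPM.

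The 2 genes that rose encode nuclear proteins. DNAJC9, a chaperone of histones H3 and H4, read 29.3 and 29.6 TPM in DMSO and 41.7 and 42.6 TPM with periplocin (0.50, SE 0.11, limma adjusted p = 0.0203; 0.65 and 0.0101 with size factors). Its row shares 34.2% of its words with others, chiefly with FAM149B1 on the opposite strand. DNAJC8 read 86.0 and 99.4 TPM against 117 and 118 TPM (0.34, SE 0.10, limma adjusted p = 0.0493), a call that was lost with pseudocounts of 0.1 and 0.5. DNAJC17, another splicing-associated nuclear protein, moved the other way, from 35.3 and 33.9 TPM to 26.0 and 19.0 TPM (-0.61, SE 0.17, limma adjusted p = 0.0423). That call was lost with size factors (-0.47, limma adjusted p = 0.0905), and 35.5% of its words occur in other rows, chiefly GCHFR on the opposite strand.

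Among the genes with vesicle, ribosome and other tasks, DNAJC6 was the 1 that passed. DNAJC6 (auxilin), which recruits HSC70 to uncoat clathrin-coated vesicles, read 7.23 and 8.30 TPM in DMSO and 4.23 and 3.83 TPM with periplocin (-0.80, SE 0.21, limma adjusted p = 0.0346). With size factors it missed the threshold (-0.68, limma adjusted p = 0.0535). GAK, the broadly expressed relative of auxilin, did not pass (0.10, limma adjusted p = 0.547). DNAJC5, the cysteine string protein of secretory vesicles, had -0.27, DNAJC13 of endosomes 0.09, DNAJC2 of the ribosome -0.09, DNAJC21 of ribosome maturation 0.20 and DNAJC24 of diphthamide synthesis -0.27, and none of these passed.

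Summed over the 36 genes, DNAJ transcripts came to 1317 and 1372 TPM in DMSO and 1176 and 1222 TPM with periplocin, a ratio of means of 0.892. The ratio was 0.689 for class A, 0.980 for class B and 0.908 for class C. Of the 3 main HSP70 partners, 2 moved by more. HSPA8 fell from 2836 and 2922 TPM to 437 and 487 TPM, a log2 fold change of -2.64 (SE 0.07, limma adjusted p = 0.000427). HSPA5 fell from 580 and 627 TPM to 310.1 and 331 TPM (-0.91, SE 0.08, limma adjusted p = 0.00339). HSPA9 stood at 334 and 354 TPM in DMSO and 342 and 372 TPM with periplocin and did not pass (0.05, limma adjusted p = 0.637). HSPA1A and HSPA1B, the stress-inducible HSP70 genes, were listed at 0 in all 4 libraries. Words shared with other rows were counted for the DNAJ genes alone, not for HSPA8, HSPA5, HSPA9, HSPA1A or HSPA1B. The quantifier is not given. A listed 0 therefore does not show that HSPA1A and HSPA1B were silent.

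The ratio of DNAJ to HSP70 transcripts, which no common scaling of a library changes, moved differently in each compartment. The 7 cytosolic class A and B genes summed to 303 and 311 TPM in DMSO and 248 and 274 TPM with periplocin. Relative to HSPA8 that was 0.107 and 0.107 in DMSO and 0.569 and 0.564 with periplocin, a 5.31-fold higher ratio. The 7 ER lumen genes over HSPA5 gave 0.601 and 0.580 in DMSO and 0.987 and 0.965 with periplocin, 1.65-fold higher. The 5 mitochondrial genes over HSPA9 gave 0.506 and 0.467 in DMSO and 0.322 and 0.289 with periplocin, a ratio of 0.629 between the means. Groups did not overlap in any of the 3, but with 2 libraries against 2 an exact two-sided permutation test cannot go below p = 0.333. These are ratios of transcripts and say nothing of protein. In the DMSO means DNAJB11 gave 168 of the 356 TPM of the ER lumen sum. DNAJC11 gave 57.9 of the 167 TPM of the mitochondrial sum. Other rows also hold 32.7% of the DNAJB11 words and 39.4% of the DNAJC11 words. Shared words were not counted for the HSP70 genes.

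**Figure D4:**
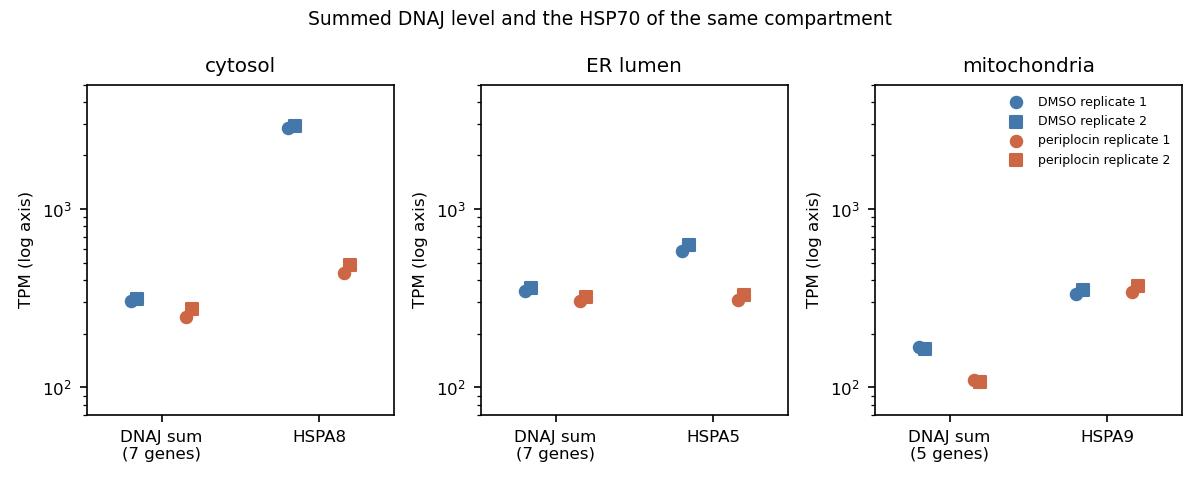
Summed TPM of the 7 cytosolic class A and B, the 7 ER lumen and the 5 mitochondrial DNAJ genes beside the HSP70 of the same compartment, on a log axis, with 1 point per library. In the cytosol HSPA8 drops from 2836 and 2922 TPM to 437 and 487 TPM while the sum of the 7 DNAJ genes goes from 303 and 311 TPM to 248 and 274 TPM, and in mitochondria the DNAJ sum drops while HSPA9 does not.

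The rest of the HSP70 cycle was read from lists chosen by role. Among all tested genes 18.9% were lower and 10.4% higher, and with size factors 13.5% were lower and 15.5% higher. No list was tested against these shares. Of 10 tested HSP70 and HSP110 genes, 4 were lower and none higher, with HSPH1 (an HSP110, which acts as a nucleotide exchange factor) at -1.12 and HYOU1 (its ER relative) at -0.36 beside HSPA8 and HSPA5; with size factors 3 were lower and 2 higher. Of 10 genes listed as nucleotide exchange factors, a class that releases ADP from HSP70, 3 were higher and 1 lower. GRPEL2 of mitochondria (0.75), BAG6 (0.64) and BAG3 (0.55) rose and HSPBP1 (-0.48) fell, with 4 higher and 1 lower under size factors. The list was set by hand, and whether each BAG protein on it, BAG6 included, has this activity was not checked. None of the 3 adaptors STIP1, ST13 and STUB1 passed, nor did HSCB, SEC63 and GAK, which carry a J domain under other symbols. Of 8 subunits of the cytosolic chaperonin CCT, 5 were lower and none higher, among them CCT6A (-0.61) and CCT3 (-0.60), and with size factors 3 were lower and none higher. Of 9 ER folding partners, 6 were lower and none higher, with the same counts under size factors, among them CRELD2 (-1.25) and the lectin chaperone CALR (-0.90). The ER lumen group set by hand, of which 1 of 7 genes was lower, had a median of -0.20. The median was -0.82 for those 9 partners and -0.14 for all tested genes.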

How the data were processed

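Total RNA of 4 AMO1 libraries was sequenced as paired ends, per the labels' protocols. The authors deposited 1 table of TPM values for 37247 gene rows. The submitters' processing notes name the build GRCh38 and the tool DESeq2 without saying what each was used for. Aligner, quantifier and annotation: not given in the sources used here. PP in a column name was taken to mean periplocin. Gene IDs were matched to current symbols (34436 rows) and to GENCODE 29 (34620 rows).

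TPM values are not counts, so limma 3.58.1 with a trend was fitted on log2(TPM + 1) in R 4.3.3 to the 12947 genes with at least 1 TPM in at least 2 libraries, with Benjamini-Hochberg adjustment over all of them and a threshold of 0.05. The script was tested on simulated data. Members were chosen by symbol, and classes, compartments, partner lists and markers were set by hand; all were chosen with earlier results of these data known. Every gene matching the symbol rule could be named. Partners came only from the lists, at most 4 called per list by size of change, plus HSPA8 and HSPA5. HSPA9, uncalled partners, cell type markers, overlapping genes and DNAJC19P5 were named after their values were seen. Alternatives were 2 pseudocounts, 2 filters, 2 scalings, no trend, the replicate number as a block, each library left out and pseudogene TPM added. Transcripts were compared as words of 31 bases, with either strand counted for words shared with other rows, and aligned with Biopython 1.88. One listed partner gene is not reported here.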

Additional observations from a re-analysis of the deposited data

How the results depend on the processing

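The fold change of DNAJC19, a called gene, turned from -0.56 to 0.38 when pseudogene TPM was added, a sum over rows of unlike length. Other sign changes were in genes that did not pass: DNAJC2 (0.051), DNAJC15 (0.074) and DNAJC16 (0.12) with size factors, DNAJC4 (0.015), DNAJC15 (0.23) and DNAJC16 (0.25) with quantile normalization. With 1 library left out, DNAJB4 ranged from -0.085 to 0.32, DNAJC3 from -0.039 to 0.19, DNAJC13 from -0.090 to 0.27, DNAJC15 from -0.16 to 0.054 and DNAJC16 from -0.29 to 0.26. The number of DNAJ genes called lower, 9, became 3 with no filter on low values, 4 with size factors, 4 with quantile normalization and 5 without the trend, where 4.83%, 13.5%, 13.6% and 14.9% of all tested genes were lower. The number called higher, 2, became 1 with a pseudocount of 0.1 or 0.5, with no filter or without the trend, 4 with a filter at 5 TPM and 5 with size factors, where 10%, 10.3%, 2.89%, 6.77%, 14.5% and 15.5% of all tested genes were higher. DNAJA1, DNAJB1, DNAJC8, DNAJC10, DNAJC17 and DNAJC19 lost their calls both with no filter and without the trend, DNAJC6 with no filter, and DNAJB5 gained one without the trend. Leaving out 1 library gave 0 to 5 lower and 0 to 0 higher. DNAJA1, DNAJA3, DNAJC14 and DNAJC30 remained called without periplocin replicate 2, and DNAJA3, DNAJC14, DNAJC17, DNAJC19 and DNAJC30 without periplocin replicate 1. Median log2 fold changes with size factors and with quantile normalization were -0.085 and -0.099 for all 36, -0.11 and -0.10 for class C, -0.13 and -0.13 for the cytosol, -0.055 and -0.067 for the ER, and 0.23 and 0.32 for class B. With 1 library left out they ranged from -0.24 to -0.19, from -0.27 to -0.19, from -0.29 to -0.22, from -0.22 to -0.038 and from -0.085 to 0.25 in the same order, and from -0.68 to -0.43 for class A. The cause of these changes was not tested. Replicate numbers were not taken to pair the samples. Deviations of same-numbered libraries correlated at 0.03, which cannot exclude a shared culture or preparation. With the replicate block 10 were lower and 5 higher, DNAJB6, DNAJB11, DNAJB12 and DNAJB14 being added. Among all tested genes 22.2% were then lower and 13% higher. A lone library was assumed to vary like the other group. Depth is unknown, so the precision of low levels such as that of DNAJB5 cannot be given.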

Other observations

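Of the 36 DNAJ genes, 8 (22.22%) had another protein-coding tested gene starting on the opposite strand within 1000 bases, against 16.27% of 11418 tested protein-coding genes. The partners differed in how they moved beside the DNAJ gene. APTX, a DNA repair gene whose start lies 43 bases from that of DNAJA1, read 35.4 and 32.0 TPM in DMSO and 17.6 and 16.6 TPM with periplocin (-0.94, limma adjusted p = 0.0066), lower like DNAJA1. CORO7, 100 bases from DNAJA3, did not pass (0.18, limma adjusted p = 0.183) where DNAJA3 fell. PNPLA8, 98 bases from DNAJB9, rose (0.78, limma adjusted p = 0.0191), and CASP9, the initiator caspase 279 bases from DNAJC16, fell (-0.95, limma adjusted p = 0.0174), while DNAJB9 and DNAJC16 did not pass. The other partners did not pass: FUBP1 beside DNAJB4 (0.03), THAP5 beside DNAJB9 (0.21) and PSMC2 beside DNAJC2 (-0.03). Nor did ZFYVE19 beside DNAJC17 (-0.18) or BUD23 beside DNAJC30 (-0.13), where the DNAJ gene fell. Among all tested genes 29.3% passed in either direction. How fully each pair is described was decided after the values were seen.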
